A study of Drosophila melanogaster with 3 samples.

Results

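The microRNA genes of Drosophila melanogaster were examined as possible places of Ets21C binding at the onset of metamorphosis. The members were all 260 genes on the nuclear arms whose transcript the Ensembl BDGP6 annotation calls a precursor microRNA, of 18164 annotated genes there. Each member is a hairpin of 50 to 174 bp (median 92). Hairpins under 10 kb apart were treated as 1 cluster, which gave 198 clusters, of which 27 held more than 1 hairpin. The data are chromatin immunoprecipitation with sequencing (ChIP-seq) of Ets21C, an ETS-family transcription factor, in whole white prepupae. The flies were the strain labelled d.ets6-GFP, a transgenic line that carries Ets21C with eGFP at its C terminus, and the tagged protein was precipitated with an antibody against GFP. All 3 biological replicates belonged to this 1 group, came from the same line, pooled males and females of unrecorded age, and used sonicated chromatin of 200 to 800 bp. No untagged or untreated group was among the samples, so the shares below are set against positions elsewhere in the same genome, and no test between groups was possible.

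MicroRNAs are short RNAs that guide Argonaute proteins to complementary sites in messenger RNAs, mostly by the seed at their 5′ end, and lower the output of those messages. They are cut from hairpins in longer primary transcripts by Drosha and then Dicer-1, while mirtrons are released by splicing of a short intron. The promoter of a microRNA is therefore that of its host gene or of a noncoding primary transcript, which can lie far from the hairpin. In the fly, let-7 and its cluster mates rise under the ecdysone pulses of metamorphosis, bantam promotes growth and cell survival, and miR-279 acts in sensory neuron development.

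The mature products of the loci that the results turn on are shown first, because shared seeds tell which loci could act on the same messages. They were read from the Release 6 genome (dm6) at the positions of the RefSeq annotation, which held all 260 hairpins by FlyBase identifier, at the same coordinates. Sequences run 5′ to 3′, and capitals mark the seed, bases 2 to 8.
miR-279 (3′ arm): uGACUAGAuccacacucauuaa
miR-996 (3′ arm): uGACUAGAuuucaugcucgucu
bantam (3′ arm): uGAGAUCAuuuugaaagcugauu
miR-92a (3′ arm): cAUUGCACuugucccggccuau
miR-92b (3′ arm): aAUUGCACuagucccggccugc
miR-275 (3′ arm): uCAGGUACcugaaguagcgcgcg
miR-305 (5′ arm): aUUGUACUucaucaggugcucug
miR-282 (5′ arm): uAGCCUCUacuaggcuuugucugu
let-7 (5′ arm): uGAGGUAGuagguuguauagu
The products of mir-279 and mir-996 had the same seed, which 3 annotated hairpins carried, the third being mir-286. The products of mir-92a and mir-92b shared a seed with mir-310, mir-311, mir-312 and mir-313, 6 hairpins in all. The seed of miR-275 was also that of mir-306, and the arms shown for bantam, mir-282 and let-7 had a seed found in 1 hairpin each. The hairpins lie on the plus strand at chr3R:29215585-29215684 for mir-279, chr3R:29217184-29217280 for mir-996, chr3L:642208-642288 for mir-ban (the bantam gene) and chr3R:25646506-25646600 for mir-92a. Those of mir-275, mir-305 and mir-282 lie on the same strand at chr2L:7425795-7425892, chr2L:7425972-7426044 and chr3L:3251022-3251118.

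The DNA under the summit of the leading peak at 5 of these loci is shown next, 100 bp to either side of the summit, on the plus strand of dm6. Capitals mark GGAA, the core word that ETS proteins recognise, or TTCC, the same word on the other strand.
mir-279 peak, chr3R:29214349-29214549: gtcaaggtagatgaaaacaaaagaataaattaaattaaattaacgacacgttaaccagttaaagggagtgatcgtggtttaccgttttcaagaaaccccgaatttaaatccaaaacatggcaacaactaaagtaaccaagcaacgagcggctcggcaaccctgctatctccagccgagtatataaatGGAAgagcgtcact
mir-ban peak, chr3L:640691-640891: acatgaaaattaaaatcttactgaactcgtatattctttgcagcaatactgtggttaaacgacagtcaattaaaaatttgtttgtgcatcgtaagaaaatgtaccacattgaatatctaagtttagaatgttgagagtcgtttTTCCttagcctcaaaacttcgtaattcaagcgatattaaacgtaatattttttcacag
mir-92a peak, chr3R:25646982-25647182: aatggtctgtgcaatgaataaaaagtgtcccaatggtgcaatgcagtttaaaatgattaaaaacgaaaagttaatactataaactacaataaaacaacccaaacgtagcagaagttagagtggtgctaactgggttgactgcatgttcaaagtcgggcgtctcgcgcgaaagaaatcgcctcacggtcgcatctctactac
mir-275 and mir-305 peak, chr2L:7425268-7425468: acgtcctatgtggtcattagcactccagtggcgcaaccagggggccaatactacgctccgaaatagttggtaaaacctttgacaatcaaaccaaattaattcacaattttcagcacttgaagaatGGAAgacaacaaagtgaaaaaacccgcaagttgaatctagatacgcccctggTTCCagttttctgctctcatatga
mir-282 promoter peak, chr3L:3248809-3249009: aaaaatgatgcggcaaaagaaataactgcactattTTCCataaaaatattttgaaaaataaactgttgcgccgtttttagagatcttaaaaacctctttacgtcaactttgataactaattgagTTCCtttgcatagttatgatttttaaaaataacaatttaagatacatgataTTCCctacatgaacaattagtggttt
The mir-279 and mir-ban windows held the core word 1 time each, the mir-275 window 2 times and the mir-282 window 3 times. The mir-92a window did not hold it. Among all 4482 optimal peaks on the arms, 74.1% held GGAA on either strand in such a window.

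Peaks were taken from the optimal list, which the authors derived by comparing replicates, and a peak's signal is the value that they deposited with it. Of the 260 hairpins, 26 (exact 95% Clopper-Pearson interval of the share 6.64 to 14.3%) had an optimal summit within 2 kb. Intervals of hairpin length placed every 1 kb along the arms had one in 11.1% of cases, and the 5′ ends of protein-coding genes in 20.8%. The hairpins' share was thus near that of the genome at large and below that of coding 5′ ends. Counted by cluster, 21 of 198 (10.6%, 6.69 to 15.8%) had a summit within 2 kb. With only the optimal peaks whose summit was matched in the highest peaks of 2 replicates, the counts were 18 hairpins and 13 clusters without replicate 1, 16 and 12 without replicate 2, and 15 and 11 without replicate 3. The grid was not counted on these reduced sets of peaks. The intervals cover counting error only, and neighbouring hairpins share peaks. Whole animals mix many tissues, so a peak present in few cells and a weak peak in many cannot be told apart.

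The distance from hairpins to the nearest optimal summit had a median of 9557 bp. It was 17708.5 bp for the grid and 9747 bp for coding 5′ ends. Close to the hairpin, the share of hairpins with a summit was below that of the grid, by less than the counting error. A nearest summit within 500 bp was found for 5 hairpins (1.92%, against 3.48% of grid intervals), and one over 500 and up to 1000 bp away for another 5 (1.92%, against 2.76%). Over 2000 and up to 5000 bp away the hairpins had 50 (19.2%, 14.6 to 24.6%, against 11.5%), and over 5000 and up to 10000 bp away 57 (21.9%, 17.0 to 27.5%, against 13.6%). No optimal summit fell inside a hairpin.

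**Figure D1:**
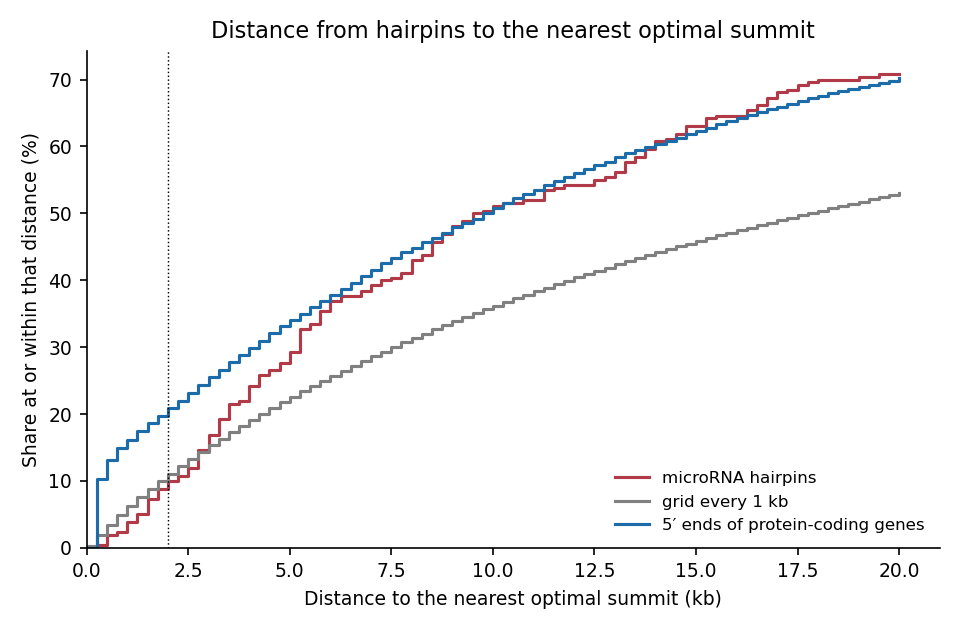
Cumulative share (%) of microRNA hairpins, of intervals on a 1 kb grid and of 5′ ends of protein-coding genes whose nearest optimal summit lies at or within a distance (kb); the dotted line marks 2 kb. The hairpin curve lies below the grid curve up to 1 kb (3.85% against 6.25%), is close to it at 2 kb (26 of 260 hairpins against 11.1% of the grid) and nears the curve of coding 5′ ends farther out, where the medians are 9557 and 9747 bp.

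By place, 112 hairpins were in introns of a coding or noncoding gene on their own strand, 73 overlapped an exon, 27 were antisense to a gene and 48 were intergenic. An optimal summit within 2 kb was found for 13 of 112 intronic hairpins (11.6%, 6.33 to 19.0%), against 12.0% of intronic grid intervals. It was found for 5 of 73 exonic hairpins (6.85%, 2.26 to 15.3%), against 12.5%. None of the 27 antisense hairpins had one (exact 95% interval 0 to 12.8%), against 12.9% of antisense grid intervals. Some antisense hairpins, such as mir-978 and mir-979, lie in the same cluster, and no count by cluster was made for them. This count therefore does not show a share below that of the grid. Of the 48 intergenic hairpins 8 had one (16.7%, 7.48 to 30.2%), against 7.74% of intergenic grid intervals, and those 8 lay in 5 of 29 clusters, with 4 of them at the mir-310 cluster. Mirtrons, here the 33 hairpins whose ends both lay within 5 bp of an intron's ends, had 1 summit within 2 kb, near mir-1012 (3.03%, 0.0767 to 15.8%).

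Arm 2R held 12 of the 26 hairpins with a summit. That was 21.8% of its 55 hairpins (11.8 to 35.0%), against 2535 of 25287 grid intervals there. The other arms had 14 of 205 (6.83%, 3.78 to 11.2%), against 12322 of 108597 grid intervals. In clusters the counts were 8 of 40 on 2R and 13 of 158 elsewhere. This contrast between arms was noticed in these data and was not tested.

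The highest peak within 2 kb of any hairpin stood upstream of mir-279 and mir-996, at the start of their shared noncoding primary transcript lncRNA:CR31044. Both hairpins are intronic in that transcript. The peak (chr3R:29214248-29214613) had an optimal signal of 1649.8, rank 44 of 4505, with its summit 1136 bp upstream of mir-279 and 113 bp upstream of the annotated transcription start site (TSS). To compare replicates, each replicate's signal at a peak was divided by the median of its own 4505 highest peaks, called the height below. The height was 8.35 in replicate 1, 7.23 in replicate 2 and 9.45 in replicate 3 (8.35 ± 1.11, SD, n = 3). All 3 replicates thus placed it at several times their median, and its lowest replicate exceeded the highest value of every other peak in the plot of heights near hairpins. A second optimal peak lay 4444 bp downstream of mir-279, at the TSS of eEF1gamma, a translation elongation factor subunit, with a signal of 316.3, and was matched in replicates 2 and 3.

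The next highest peak within 2 kb of a hairpin was at bantam. Its summit (peak chr3L:640606-640900, signal 632.4) lay 1417 bp upstream of the hairpin in an exon of lncRNA:CR43334, the primary transcript, 1077 bp inside its nearest annotated TSS. The height was 4.01, 2.31 and 3.48 in replicates 1 to 3 (3.27 ± 0.867). No optimal summit lay within 500 bp of a TSS of that transcript. Another peak, with its summit 2039 bp downstream of the hairpin and a signal of 385.4, was matched in replicates 2 and 3 with heights of 1.94 and 2.01 and had no match in replicate 1.

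At mir-92a, an intronic microRNA of the regulatory gene jigr1, the summit lay 482 bp downstream of the hairpin (chr3R:25646894-25647187, signal 510.9). The height was 3.18, 2.53 and 2.49 (2.73 ± 0.391). The same summit was 164 bp upstream of an alternative TSS of jigr1, so it lay between the hairpin and that TSS, whose transcript does not contain the hairpin. A lower peak, with a signal of 207.7 and heights of 1.56, 1.14 and 0.859, lay 133 bp upstream of a jigr1 TSS whose transcripts do contain it. The seed mate mir-92b, in an exon farther along the same gene, was 4316 bp from the higher summit, that of signal 510.9, and had no nearer one.

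The mir-275 and mir-305 hairpins lie side by side, and miR-305 has been tied to insulin and nutrient responses. The leading summit (chr2L:7425265-7425486, signal 470.5) was 427 bp upstream of mir-275 in an exon of lncRNA:CR43857, with heights of 3.10, 2.00 and 2.30 (2.47 ± 0.567). Within 5 kb of mir-275 there were 5 further optimal summits. The strongest of these lay 4957 and 2915 bp upstream of mir-275, with signals of 336.2 and 283.0. Heights in replicates 1 to 3 were 1.94, 1.45 and 1.81 at the first and 2.01, 1.37 and 1.47 at the second. One at 297 bp upstream of the TSS of lncRNA:CR43857 had a signal of 161.5 and heights of 1.48 and 1.10 in replicates 1 and 2, with no match in replicate 3. One at 759 bp downstream of mir-275 had a signal of 164.4, with heights of 0.943 and 0.773 in replicates 2 and 3 and no match in replicate 1. That summit was also 215 bp upstream of the TSS of muc, which encodes a pyruvate dehydrogenase complex subunit.

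At mir-8, the fly member of the miR-200 family, the summit within 2 kb (chr2R:16830446-16830681, signal 448.7) was 929 bp upstream of the hairpin and 186 bp upstream of a TSS of its transcript lncRNA:CR43650. The height was 2.12, 1.97 and 2.72 (2.27 ± 0.398). A higher peak, with a signal of 829.4 and heights of 5.61, 4.29 and 3.63, lay 3051 bp upstream of the hairpin and 714 bp upstream of the same transcript, outside both windows used for counting. At mir-14, which acts in cell death, fat metabolism and ecdysone signalling, the summit 874 bp upstream of the hairpin fell at 44 bp inside the transcript lncRNA:CR43651 (signal 197.1). It was matched in replicate 2 at a height of 0.486 and in replicate 3 at 1.45, and had no match in replicate 1.

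**Figure D2:**
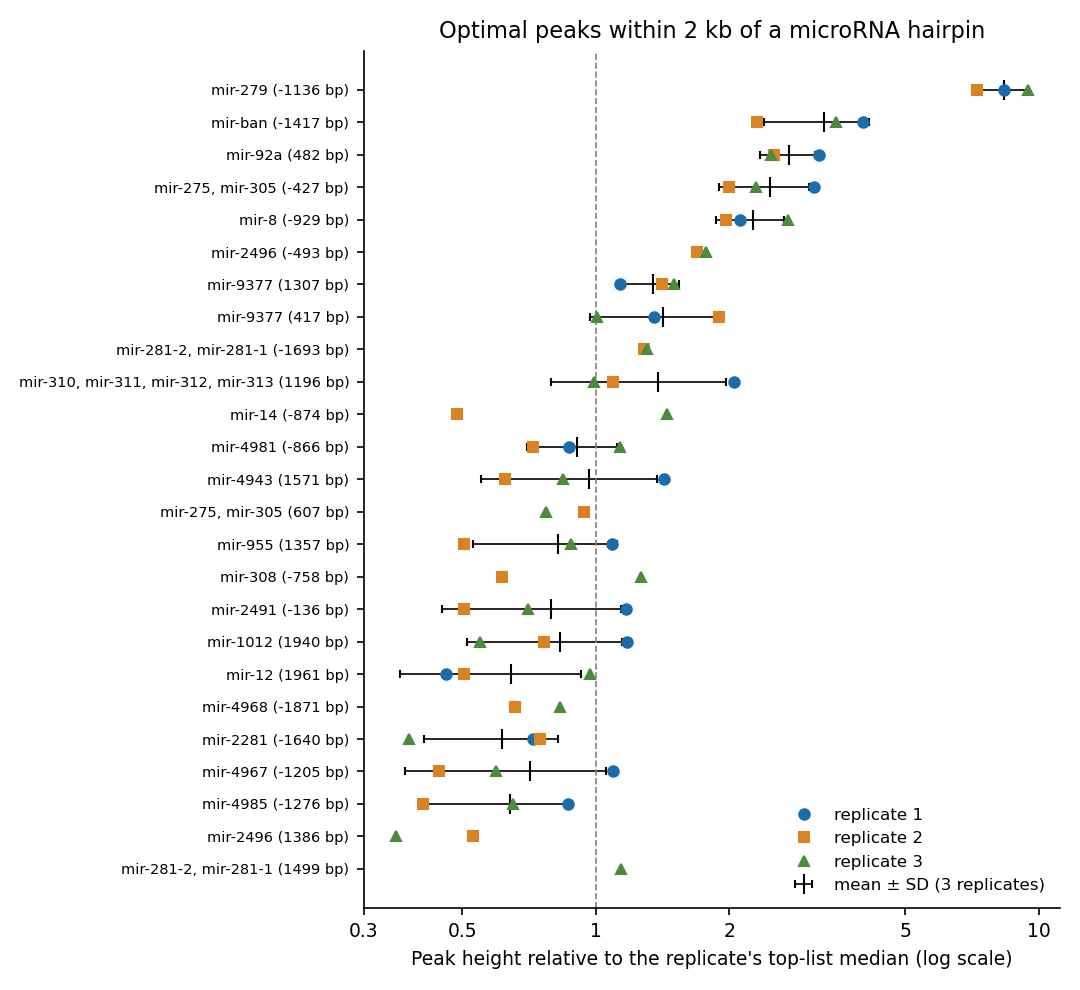
Height of each of the 25 optimal peaks within 2 kb of a hairpin in each replicate, as a multiple of the median over the 4505 strongest peaks of the same replicate (log axis; dashed line at 1), ordered by optimal signal; names give the hairpins and the summit's distance, negative upstream. Bars are the mean ± SD where all 3 replicates had a match, as 17 peaks did; mir-279 sits highest at 8.35 ± 1.11, and the peaks of lowest signal sit near or under 1.

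The 26 hairpins shared 25 optimal peaks. Their optimal signal ran from 110.8 to 1649.8 with a median of 175.9, against 191.7 for all optimal peaks on the arms, and 11 of the 25 were above that overall median. In replicate terms 17 peaks were matched in the whole lists of all 3 replicates, 7 in 2 of them and 1 in a single replicate. By the stricter lists of the 4505 highest peaks of each replicate, called top lists, 10 of 25 peaks (40.0%) were in all 3, against 45.7% of all optimal peaks on the arms. Another 10 were in 2 top lists, 4 in 1 and 1 in none. The top list of replicate 1 held 16 of the 25, that of replicate 2 held 17 and that of replicate 3 held 21. For all optimal peaks, only the share in all 3 top lists was counted. The other replicate counts of these 25 peaks therefore have no background here.

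Of these peaks, 14 lay upstream and 11 downstream of the nearest hairpin. A TSS of a coding or noncoding gene other than a microRNA was within 500 bp of 11 of them, against 40.0% of all optimal peaks. The GC content within 50 bp of the summit had a median of 34.7% (21.8 to 59.4%), against 31.7% for all optimal peaks. Words were searched on both strands within 100 bp of the summit. GGAA was in 22 of 25 windows (88.0%, against 74.1% of all optimal peaks) and GATAA, bound by GATA factors, in 9 (36.0%, against 41.0%). GGTCACACT, a core promoter word of fly genes, was in 2 (8.00%, against 0.803%), at the promoters of muc near mir-305 and of RpS23 near mir-308. Windows near hairpins held none of the longer ETS word CCGGAAGT, the promoter word TATCGATA or the AP-1 word TGACTCA, which reads TGAGTCA on the opposite strand. These words were in 0.178%, 2.48% and 1.70% of all optimal windows.

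**Figure D3:**
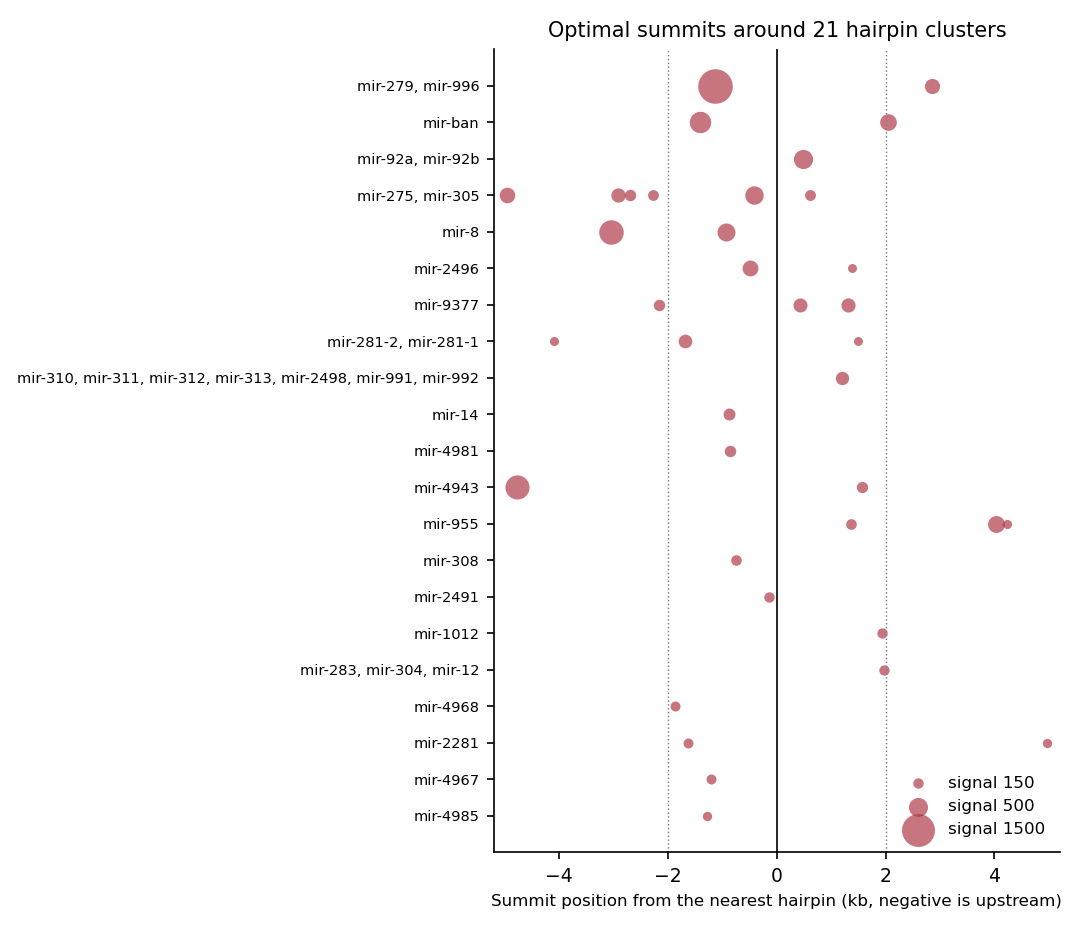
Optimal summits within 5 kb of the 21 hairpin clusters that had a summit within 2 kb (dotted lines), by distance from the nearest hairpin in the direction of transcription (kb); the area of a point follows the optimal signal. The mir-279 summit is the strongest at 1649.8, and stronger peaks than the one within 2 kb lie farther out at mir-8 (829.4), mir-4943 (804.0) and mir-955 (396.4).

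The remaining clusters had lower peaks. The mir-2496 summit, 493 bp upstream of the hairpin on X, had a signal of 348.2 and heights of 1.69 and 1.78 in replicates 2 and 3, with no match in replicate 1. Peaks on either side flanked mir-281-2 and mir-281-1, in the antizyme gene Oda. One peak (258.6) was matched in replicates 2 and 3 and another (110.8) in replicate 3 alone. The hairpin mir-9377, in an intron of the mRNA decay factor gene Tis11, had a pair of peaks at 417 and 1307 bp downstream with signals of 272.8 and 276.7. Their heights were 1.42 ± 0.447 and 1.35 ± 0.192, so the peaks did not differ beyond the spread between replicates.

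The hairpins mir-310, mir-311, mir-312 and mir-313 shared a single peak of signal 245.6, downstream of mir-310 in the neighbouring gene qsm. Its height was 2.05, 1.09 and 0.991 (1.38 ± 0.586). The other 12 clusters had a highest signal of 121.0 to 197.1. In order they were mir-14, mir-4981, mir-4943, mir-955, mir-308, mir-2491, mir-1012, mir-12, mir-4968, mir-2281, mir-4967 and mir-4985, the first of which is described above. Among the others, heights averaged from 0.616 ± 0.206 at mir-2281 to 0.964 ± 0.414 at mir-4943 where all 3 replicates had a match, which put them at or under the median of the top lists.

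The intronic hairpins had 106 host genes, of which 99 were protein-coding and 7 noncoding. An optimal summit lay within 500 bp of a host TSS at 23 hosts (21.7%, 14.3 to 30.8%), against 13.9% of all coding and noncoding genes other than microRNAs. For the protein-coding hosts it was 22 of 99 (22.2%, 14.5 to 31.7%), against 15.2% of protein-coding genes. With only peaks matched in the top lists of 2 replicates, 16 hosts were left without replicate 1, 14 without replicate 2 and 15 without replicate 3. Other genes were not counted on these reduced sets of peaks. Hosts were long and had more starts. Their median length was 14301.5 bp, against 1864 bp for all such genes, and their median number of TSS positions was 2, against 1. Counted per TSS position, 33 of 242 in hosts (13.6%, 9.58 to 18.6%) had a summit within 500 bp, against 13.1% of 22290 positions in all such genes. With a TSS window of 250 bp, 12 hosts (11.3%) had a summit, against 10.6% of all genes. With one of 1000 bp, 27 hosts (25.5%) had a summit, against 17.1%. By the gene, the share of hosts with a promoter peak was above that of genes at 500 and 1000 bp. At 250 bp the shares were near each other. For protein-coding hosts at 500 bp, the share of protein-coding genes lay inside the interval, so that difference is within counting error. The windows of 250 and 1000 bp were set only against coding and noncoding genes together, and some hosts share a peak. Counted per TSS at 500 bp, the shares were near each other.

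The 23 hosts had 21 different highest peaks, since chk and CG45092 share one and Usp12-46 and CG7029 another. Counted by host, the highest peak was in all 3 top lists for 14 hosts, in 2 for 3, in 1 for 5 and in none for 1. The highest promoter peaks of other genes were not counted in this way, so these counts have no background here. Summits were upstream of the nearest TSS in 17 hosts. In 20 hosts the summit was over 2 kb from every hairpin the gene holds, so these peaks are not among those counted near hairpins. A host promoter peak was found for 25 of the 112 intronic hairpins (22.3%), and 7 of them also had a summit within 2 kb. Either kind of peak was found for 44 of all 260 hairpins (16.9%, 12.6 to 22.0%). Joining both windows can only raise a count. No like share was counted for grid intervals or other genes, so these counts per hairpin have no background here.

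After lncRNA:CR31044, the strongest host promoter was that of bun, a TSC-22 family growth regulator and host of mir-967 (chr2L:12483774-12484109, signal 918.3). Its height was 5.25, 3.63 and 4.79 (4.56 ± 0.836). PAPLA1, a phosphatidic acid phospholipase gene that hosts mir-4984, had a signal of 758.4 and a height of 4.19 ± 1.04, but that summit was also within 500 bp of the TSS of Rbsn-5. The hairpins mir-2a-1, mir-2a-2 and mir-2b-2, whose family represses pro-apoptotic genes, lie in an intron of spi, which encodes the EGF receptor ligand Spitz.

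The highest spi promoter peak (chr2L:19575611-19575977) had a signal of 755.0 and heights of 4.83, 4.77 and 2.83 (4.14 ± 1.14), and lay 5498 bp from the nearest of its hairpins. A second one, 336 bp upstream of another spi TSS and 2682 bp from mir-2b-2, had a signal of 491.8 and heights of 3.14, 2.38 and 2.30. MRP, a multidrug transporter gene with mir-9382, had a signal of 693.3, and its height ranged from 2.41 in replicate 3 to 5.66 in replicate 1 (SD 1.62, n = 3). The MRP summit was also within 500 bp of the TSS of Pih1D1. The 4 hosts bun, PAPLA1, spi and MRP had mean heights within their replicates' spread of each other, so their order by signal is not resolved.

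Of the weaker hosts, the cGMP-dependent protein kinase gene for (mir-4972) had a signal of 512.8 and the most even heights, 2.65, 2.52 and 2.81 (2.66 ± 0.145). Its peak, and that of the centrosomal gene tacc (mir-9384, signal 330.0, 1.73 ± 0.218), lay at starts of transcripts that do not contain the hairpin, as the highest jigr1 peak did. In the other 20 hosts the highest peak was at the start of a transcript that contains it. Peaks of lower signal were at chk and CG45092 (345.2, mir-4975), Kpc1 (314.6, mir-3644), Mob2 (292.6, mir-4968), CG6231 (278.0, mir-9373) and Hs3st-A (164.7, mir-4982). The Kpc1 summit was also within 500 bp of the TSS of CG42542, and the Mob2 summit within 500 bp of that of CG7394. From RpS23, a ribosomal protein gene with mir-308 (155.1), downward, replicate 1 had no match at any of the remaining peaks except that of the diacylglycerol kinase gene rdgA. Those remaining hosts were Atet, Usp12-46, CG7029, Pka-R2, Actn, rdgA, Mmp2 and Oda, with signals of 115.3 to 154.0. The highest Oda summit was also within 500 bp of the TSS of CCT5. No promoter peak was found at 83 hosts, among them E2f1 (mir-11), a cell cycle transcription factor, HnRNP-K (mir-7) and SREBP (mir-33), the sterol regulator. At SREBP, a peak of signal 374.2 in all 3 top lists lay 517 bp inside the TSS, just outside the window.

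**Figure D4:**
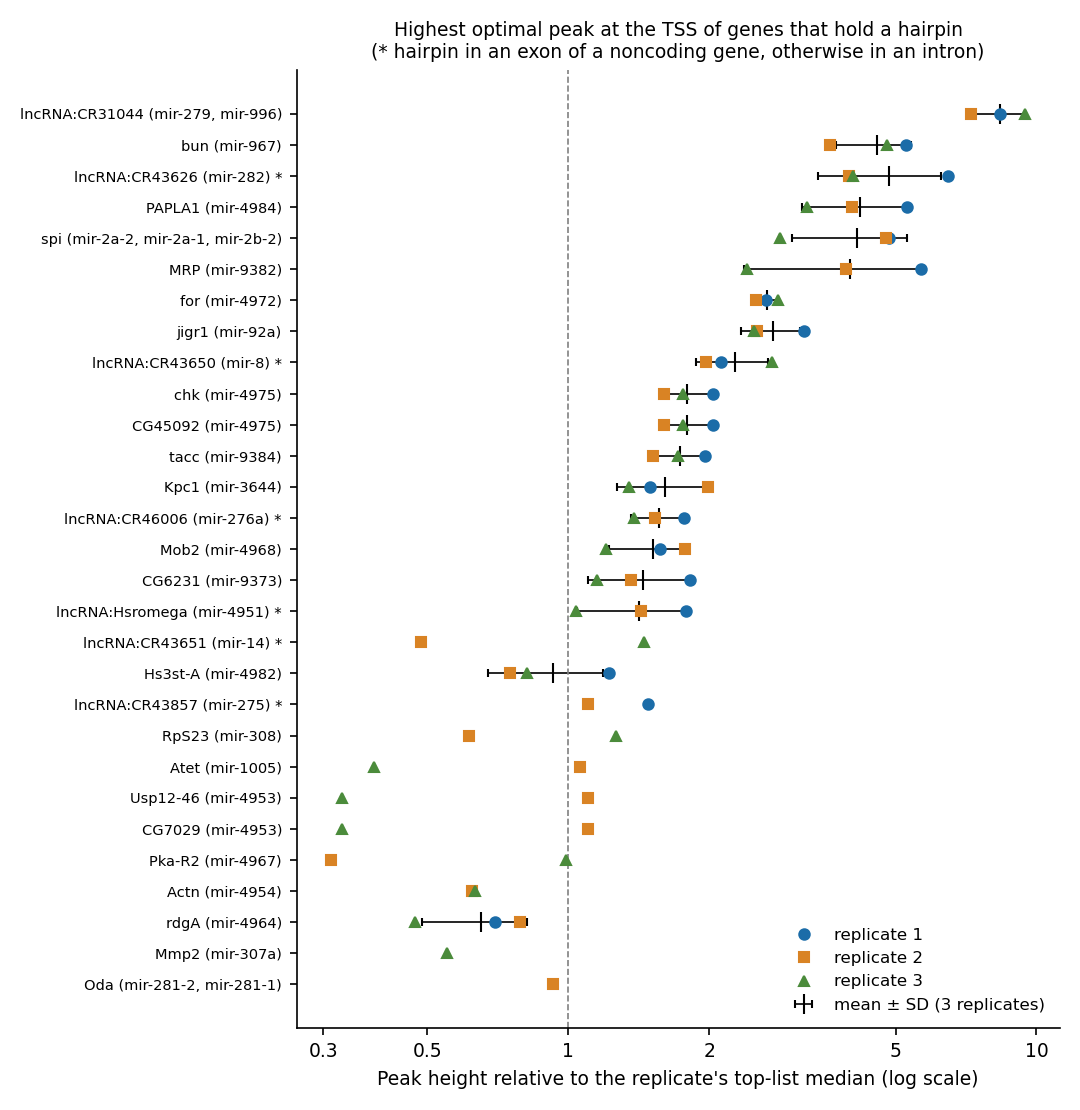
Height in each replicate of the highest optimal peak within 500 bp of a TSS, for the 23 hosts of intronic hairpins and the 6 noncoding genes with a hairpin in an exon (starred) that had one, relative to the median of each replicate's 4505 highest peaks (log axis; dashed line at 1). Bars are the mean ± SD where all 3 replicates had a match; lncRNA:CR31044 is highest at 8.35 ± 1.11, and the hosts at the bottom mostly lack replicate 1.

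Many conserved microRNAs are instead cut from exons of noncoding primary transcripts. Of 29 noncoding genes with a hairpin in an exon, 6 (20.7%, 7.99 to 39.7%) had an optimal summit within 500 bp of a TSS, against 7.02% of noncoding genes other than microRNAs. The 6 rest on few genes, and the lower end of their interval is close to that share. Their TSS positions ranged from 1 to 4 per gene, and no count per TSS was made for this set. The highest was lncRNA:CR43626, the transcript of mir-282, with a peak at chr3L:3248678-3249127 and a signal of 864.2, rank 159. Its height was 6.46, 3.98 and 4.06 (4.83 ± 1.41), and its summit was 431 bp upstream of a TSS and 2113 bp upstream of the hairpin. Optimal peaks with signals of 840.5 and 451.8 stood 3345 and 4089 bp upstream of mir-282, nearest to the TSS of CG43389, each in all 3 top lists. The 3 peaks upstream of mir-282 were thus found in every replicate.

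The others were lncRNA:CR43650 with mir-8, lncRNA:CR43651 with mir-14 and lncRNA:CR43857 with mir-275, given above, and a further pair far from their hairpins. At lncRNA:CR46006, the transcript of mir-276a, a summit stood exactly 500 bp upstream of a TSS and 33267 bp from the hairpin, with a signal of 304.3 and a height of 1.56 ± 0.195. At lncRNA:Hsromega, the heat shock noncoding gene with mir-4951, the signal was 255.0 and the height 1.42 ± 0.373. The 23 noncoding genes without a promoter peak included lncRNA:let7C (mir-100, mir-let7, mir-125), lncRNA:CR43459 (mir-277, mir-34), lncRNA:CR45916 (mir-9a), lncRNA:CR45919 (mir-124), lncRNA:CR45361 (mir-1) and lncRNA:CR44504, the early embryonic cluster from mir-309 to mir-6-3. At mir-9a, a peak of signal 272.2 in all 3 top lists lay 619 bp upstream of the TSS of lncRNA:CR45916, outside the window. A higher one (813.2), also in all 3 top lists, was 4317 bp upstream of the hairpin, nearest to the TSS of lncRNA:CR44676.

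The microRNAs were also grouped by role, and the counts below stand beside 26 of 260 hairpins overall and 11.1% of grid intervals with an optimal summit within 2 kb. The microRNAs tied to metamorphosis timing and the ecdysone response were 6, and 2 of them, mir-8 and mir-14, had one. At the let-7 cluster, mir-100 was 5047 bp and mir-let7 5647 bp from the nearest optimal summit. Weaker calls were present in the replicates' whole lists within 2 kb of mir-let7, at heights of 0.385, 0.210 and 0.154. All 3 were well under 1, the median of the top lists. At mir-34, a microRNA of ageing and neuronal maintenance, the nearest optimal summit was 9091 bp away, and the heights within 2 kb were 0.350 and 0.388 in replicates 2 and 3, with no call in replicate 1.

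In the growth and cell survival list, 3 of 18 hairpins had a summit within 2 kb, namely mir-ban, mir-14 and mir-308, and 4 intronic ones had a host promoter peak, at spi and RpS23. Among its exonic members, mir-14 had the promoter peak of its transcript given above, and mir-2b-1 lies in an exon of the kinase gene Btk, which had a promoter peak of signal 559.0 with no summit within 2 kb of the hairpin. The members without either included mir-11 and mir-13a. In the neural and sensory list, 2 of 16 had a summit, mir-279 and mir-92a, and 3 intronic ones had a host promoter peak, through the same genes. Among its exonic members, mir-92b in jigr1 and mir-276a in lncRNA:CR46006 lie in genes whose promoter peaks are given above. Neural members without either included mir-1000 and mir-124, whose nearest summits were 33266 and 52089 bp away. In the metabolism and insulin list 4 of 8 had one, mir-275, mir-305, mir-8 and mir-14, which are 3 loci, and mir-277 and mir-278 did not.

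Of the 12 hairpins of the early embryonic clusters 4 had a summit, all of the mir-310 cluster by the single peak in qsm, and the 8 of the mir-309 cluster had none nearer than 12890 bp. None of the 12 hairpins of X-linked clusters known to be testis-biased had one. They lie in few clusters, so this does not show a share below that of the grid. The Hox cluster hairpins (4, among them mir-10 and mir-iab-4) and the muscle hairpins mir-1 and mir-133 had none either. In the pooled list, where 48.9% of grid intervals and 136 of all 260 hairpins had a summit within 2 kb, it was found for 6 of 6 hairpins of the metamorphosis list, 15 of 18 of the growth list, 10 of 16 of the neural list and 6 of 8 of the metabolism list. It was found for 3 of 4 Hox cluster hairpins, 1 of 2 muscle hairpins, 2 of 12 of the testis list and 5 of 33 mirtrons. All 12 early embryonic hairpins had one, but they are 2 clusters whose hairpins share peaks. Other lists also hold hairpins of the same cluster, such as mir-100, mir-let7 and mir-125, or mir-2a-1, mir-2a-2 and mir-2b-2. Their counts are therefore not of separate loci, and pooled summits were not counted by cluster.

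The pooled list, which the authors called on all replicates together and which holds weak calls and background, gave a summit within 2 kb for 136 of 260 hairpins (52.3%, 46.0 to 58.5%), against 48.9% of grid intervals. In the top list of each replicate 25 hairpins in replicate 1 (9.62%), 22 in replicate 2 (8.46%) and 35 in replicate 3 (13.5%) had a summit, 10.5 ± 2.62% on average (SD, n = 3). The grid had 11.1%, 11.2% and 11.2%. All 3 top lists had one for 15 hairpins (5.77%, 3.26 to 9.34%), against 5.79% of grid intervals. Of the 26 hairpins with an optimal summit, 14 had a top-list summit in all 3 replicates, 9 in 2 and 3 in 1. The other hairpin with a summit in every top list was mir-282, by heights of 0.927, 0.601 and 3.02 in replicates 1 to 3 from summits nearer than that of its promoter peak.

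Just inside the 2 kb limit were mir-12 at 1961 bp with a signal of 146.5, mir-1012 at 1940 bp with 147.5 and mir-4968 at 1871 bp with 139.8. Just outside were mir-282 at 2113 bp with 864.2, mir-2498 at 2153 bp with 245.6 and mir-4982 at 2397 bp with 164.7. All 3 signals just outside thus exceeded those just inside, but the mir-2498 peak is the one already counted within 2 kb of mir-310.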

How the data were processed

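ChIP-seq of Ets21C-eGFP in white prepupae was analysed from the dm6 peak lists of 3 biological replicates, a pooled list and an optimal list. Per notes the authors deposited, a replicate list came from the alignments of 1 replicate with a control alignment, the pooled list from all replicates, and the optimal list from these by the irreproducible discovery rate. For the aligner and the peak caller, nothing is given in the sources used here. Peak heights are the signal values the authors deposited, whose scale differs between lists. They were ranked within 1 list, and compared between replicates only after division by the median of each replicate's 4505 highest peaks. The lists hold no reads, so depth is unknown and its effect on precision could not be given.

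Genes came from Ensembl release 115 of BDGP6 (dm6). It gives no gene the biotype pre_miRNA, so the transcript biotype was used. Summits in different lists were matched within 100 bp. Host genes are coding or noncoding genes with the hairpin in an intron on the same strand. Background was counted at intervals of the median hairpin length every 1 kb. The labels call the replicates biological but do not say that they came from separate cultures, so part of their spread may be technical. Named were clusters with an optimal summit within 2 kb (up to 25, by signal), hosts with a promoter summit (up to 15, by signal), up to 4 members with and 2 without a summit from each role list, and 3 hairpins on either side of the limit. Weaker hosts, hosts without a peak, noncoding transcripts, mir-let7, mir-34, mir-2b-1 and mir-9a are named beyond this rule, after their values were seen. The members and the lists were chosen with earlier results of these data known. The scoring was checked on planted summits. Python 3.11.15, SciPy 1.17.1 and matplotlib 3.10.9 were used. Window sizes, peak sets, cluster gaps, host definitions and left-out replicates were varied.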

Additional observations from a re-analysis of the deposited data

How the results depend on the processing

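The counts follow the window and the list used. With windows of 1 and 5 kb, 10 and 76 hairpins had an optimal summit (3.85% and 29.2%, against 6.25% and 22.6% of grid intervals), as did 9 and 60 clusters. With 5 kb, 208 hairpins had a pooled summit. Of the counts varied here, background shares were counted only for optimal peaks by hairpin window and by TSS window. The other counts stand without one, so a change in them cannot be set against the genome at large. With 1 and 5 kb, a summit in every top list was found for 6 and 45 hairpins, and the mean share over replicates was 4.62% and 29.0%. With the optimal peaks above the middle of the list by signal, 15 hairpins, 10 clusters and 13 hosts had a summit. Whole replicate lists gave 51 hairpins with a summit in every list and a mean share of 51.0%, and shorter top lists that kept the stronger peaks gave 7 and 5.90%. A TSS window of 250 bp left 12 hosts. Without each replicate in turn, optimal peaks matched in the other replicates' top lists were near 15 to 18 hairpins, 11 to 13 clusters and 14 to 16 host starts. Leaving out a replicate from the top lists gave 16 to 20 hairpins and a mean share of 9.04 to 11.5%. Counting by overlap, other cluster gaps, other host definitions, a TSS window of 1000 bp and the 1 kb pooled window kept the counts within 1.5 times. Counting hosts with any peak at the start of a hosting transcript, or shared peaks once, gave 21 each. Both were chosen after seeing the data. No paired analysis was possible because all samples belong to 1 group. For the cases that changed, the cause was not tested. The unknown depth, the absence of an untagged library here and the few members limit what these shares can resolve.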
